A study of Mus musculus with 18 samples.

Results

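Integrins are surface receptors made of an α and a β chain that let a leukocyte grip a vessel wall or tissue. Blood leukocytes first roll on selectins, which they hold through PSGL-1 and other ligands, and integrins that have been switched to their active form then arrest them on ICAM-1 or VCAM-1 and carry them through the endothelium. In the lung, where neutrophils leave largely from narrow capillaries, part of this traffic is known not to need the β2 integrins. The 8 genes described here were taken by name from the count table: the integrin chains Itgb2, Itgal, Itgax, Itga4, Itgav and Itgb1, the selectin ligand gene Selplg, and Cd44. They are 8 of 40481 gene IDs, and all 8 had enough reads to be among the 16575 genes tested.

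The cells were lung neutrophils of C57BL/6 mice, sorted from digested lung as live CD45+ CD11b+ Ly6G+ cells and split by CD101, a surface protein gained late in neutrophil maturation. The labels call CD101neg cells immature and CD101pos cells mature. The mRNA of Cd101, the gene of that sort marker, averaged 61.1 CPM in CGD and 166 CPM in WT CD101neg cells, 105 CPM in CGD and 403 CPM in WT CD101pos cells after zymosan, and 301 CPM in CGD and 375 CPM in WT naive cells. It followed the labels within each genotype but not across them, since CGD CD101pos cells after zymosan stood below WT CD101neg cells, so the subsets are called by their gate here. The 6 groups of 3 libraries were CGD zymosan CD101neg, WT zymosan CD101neg, CGD zymosan CD101pos, WT zymosan CD101pos, CGD naive CD101pos and WT naive CD101pos. The labels give CGD mice as Cybb knockouts, a model of chronic granulomatous disease in which phagocytes lack the core of their NADPH oxidase, and WT mice carry the normal gene. Zymosan mice were females of 13 weeks that received 20 µg of sterile zymosan, a yeast cell wall preparation, into the nose 24 hours before collection. Naive mice were untreated males of 12 weeks, so the effects of zymosan, sex and age cannot be told apart, and no naive CD101neg group was analysed here. Nothing in the labels says that replicates are separate animals, so the spread that p-values rest on may be technical. CD11b, encoded by Itgam, was part of the sort, so the presence of Itgam is no finding.

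Libraries held 33.7 to 67.9 M counts in genes, and 16575 genes were tested by edgeR's quasi-likelihood test with Benjamini-Hochberg adjustment, called at an adjusted p under 0.05. Levels are CPM, each gene's share of a library's counts on a fixed scale, adjusted by TMM factors, which correct for the make-up of each library. CGD CD101neg libraries had the lowest factors (0.702 to 0.8087), and WT naive ones the highest (1.158 to 1.24). Cybb, the targeted gene, averaged 45.1 ± 4.66 CPM in CGD CD101neg and 263 ± 10.1 CPM in WT CD101neg cells, 32.6 ± 2.7 and 173 ± 41.5 CPM in CGD and WT CD101pos cells after zymosan, and 54.7 ± 4.39 and 257 ± 22.4 CPM in CGD and WT naive cells (SD, n = 3). All 10 genes of the neutrophil-defining list were detected and tested. Mitochondrially encoded genes took 0.316 to 0.359% of counts in CGD CD101neg and 0.492 to 0.581% in WT CD101neg libraries. In CD101pos libraries after zymosan they took 0.33 to 0.396% in CGD and 0.425 to 0.571% in WT. Since these are bulk samples, fewer cells of a type and less RNA per cell cannot be told apart in any value below.

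The genes lie on 5 chromosomes in GENCODE M21 (GRCm38), used here only for names, positions and lengths. Itga4, at chr2:79255426-79333123, and Itgav, at chr2:83724397-83806916, lie on the plus strand, and Cd44, at chr2:102811141-102901665, on the minus strand. Itgal, at chr7:127296260-127335138, and Itgax, at chr7:128129547-128150657, lie on the plus strand on either side of Itgam, which starts at position 128062640. Itgb2 is at chr10:77530252-77565708, Itgb1 at chr8:128685654-128733200 and Selplg at chr5:113818536-113832644. Exons of Itga4 share 1124 bases with the opposite-strand gene Cerkl, and exons of Itgav share 634 bases with the opposite-strand Gm13684. Itgam shares 3450 exon bases with Gm49368 on its own strand, but no gene named Gm49368 was among the counted genes. Whether the counting used strand is not given in the sources used here.

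Itga4, Itgav and Cd44 carried the differences of the CD101neg cells described below, and the 250 bases before their annotated starts are given for that reason (RefSeq, GRCm38.p6, 5′ to 3′ on the gene's strand). The intervals are chr2:79255176-79255425 (plus strand), chr2:83724147-83724396 (plus strand) and chr2:102901666-102901915 (minus strand). Entries were found for 5 of the 8 genes. Capitals mark matches, on either strand, to motifs of factors active in myeloid cells or in housekeeping promoters: GAGGAA (the PU.1 type), TGTGGT (RUNX), TGANTCA (AP-1), GGGCGG (the GC box) and the NF-kB consensus. No matches overlap one another in these promoters.
Itga4: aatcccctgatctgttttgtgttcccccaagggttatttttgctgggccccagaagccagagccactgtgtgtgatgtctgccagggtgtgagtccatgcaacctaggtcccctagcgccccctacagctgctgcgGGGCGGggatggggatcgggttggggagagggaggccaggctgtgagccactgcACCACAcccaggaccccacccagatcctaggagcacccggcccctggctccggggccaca
Itgav: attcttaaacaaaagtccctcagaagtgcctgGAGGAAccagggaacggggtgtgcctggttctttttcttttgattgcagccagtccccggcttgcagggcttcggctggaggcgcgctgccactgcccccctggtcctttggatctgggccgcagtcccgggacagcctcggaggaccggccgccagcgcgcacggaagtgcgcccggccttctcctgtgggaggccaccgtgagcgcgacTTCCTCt
Cd44: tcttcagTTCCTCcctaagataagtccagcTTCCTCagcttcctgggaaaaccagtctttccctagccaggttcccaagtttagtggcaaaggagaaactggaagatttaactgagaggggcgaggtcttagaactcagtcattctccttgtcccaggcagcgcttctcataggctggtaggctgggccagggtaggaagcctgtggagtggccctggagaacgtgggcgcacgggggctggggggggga
The Itga4 window held 1 TGTGGT match beginning 60 bases before the start and 1 GGGCGG match beginning 114 bases before it. The Itgav window held 2 GAGGAA matches, at 218 and 7 bases before the start, and the Cd44 window held 2, the nearer beginning 220 bases before it. For comparison, GAGGAA was found in 23.3% of the 32851 mouse promoter windows of this length, TGTGGT in 14%, GGGCGG in 32.7%, TGANTCA in 6.75% and the NF-kB consensus in 3.9%. A match describes these letters only, and no binding was measured.

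Per kilobase of exon, the β2 chain dominated the integrins in CGD CD101neg cells. Itgb2 averaged 741 ± 98.6 CPM per kilobase there, against 221 ± 2.25 for its α partner Itgam, 46.8 ± 1.98 for Itgal and 18.2 ± 2.12 for Itgax (SD, n = 3). The adhesion genes Cd44, at 482 ± 26.4, and Selplg, at 290 ± 27.2 CPM per kilobase, stood between Itgb2 and Itgam. Itgb1 stood at 16.2 ± 6.64, Itgav at 2.34 ± 0.476 and Itga4 at 0.921 ± 0.218. In WT naive cells the same scale gave 545 ± 40 for Itgb2, 430 ± 24.1 for Selplg, 314 ± 10.3 for Cd44, 82.3 ± 2.71 for Itgal, 11.4 ± 1.14 for Itgb1 and 5.07 ± 0.352 for Itga4. Itga4 thus stood above Itgav in WT naive cells, where Itgav was at 1.16 ± 0.0424, and below it in CGD CD101neg cells. The lengths are unions of all annotated exons, so a gene with a long exon set that the cells use only in part is understated.

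**Figure D1:**
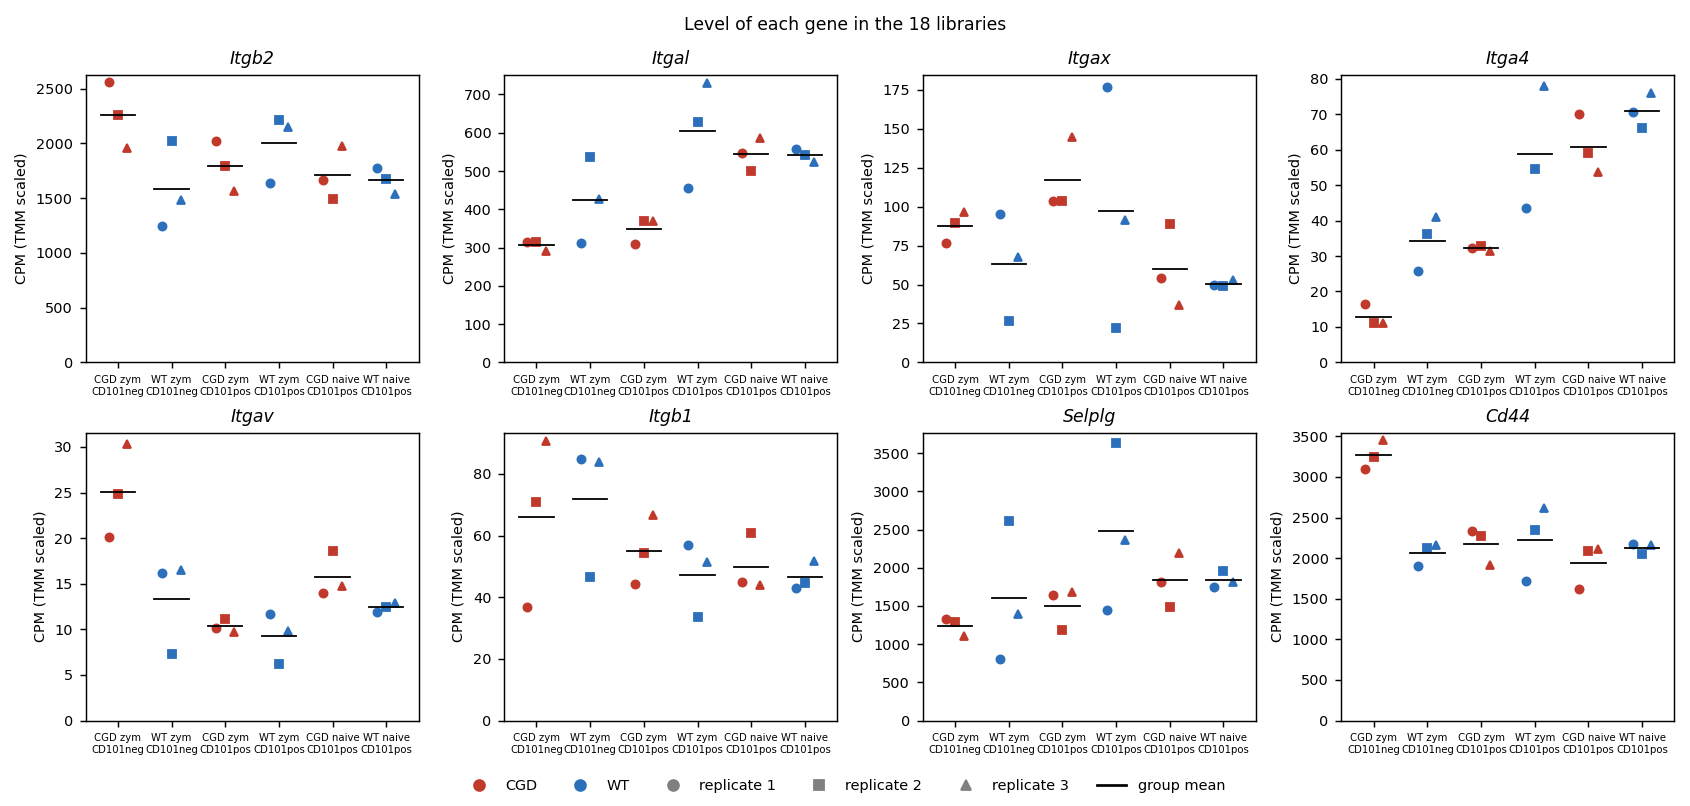
Levels of the 8 genes in CPM (linear axes from 0) in each of the 18 libraries, with 1 point per library, the marker shape giving the replicate number and the bar the group mean. Itga4 is lowest in CGD CD101neg cells, at 10.99 to 16.39 CPM, and Itgav and Cd44 are highest there, at 20.15 to 30.36 and 3098 to 3454 CPM.

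The central comparison asked whether loss of Cybb changed these genes in the CD101neg cells of the lung after zymosan. In CD101neg cells, 2 of the 8 genes rose in CGD and 1 fell. Across all genes tested, 6.67% rose and 6.24% fell in this comparison, and the median log2 fold change was -0.0841, against 0.174 over the 8 genes. Itga4 fell, Itgav and Cd44 rose, and the other 5 did not pass.

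Itga4 encodes the α4 chain, which pairs with β1 as VLA-4, a receptor for VCAM-1 and fibronectin, or with β7. It stood at 16.39, 10.99 and 11.23 CPM in CGD CD101neg libraries, against 25.85, 36.24 and 40.98 CPM in WT CD101neg libraries. The groups did not overlap, and CGD CD101neg libraries were the lowest of all 18. The fall was 1.42 ± 0.23 on the log2 scale (SE, adjusted p = 0.000535 by edgeR's quasi-likelihood test). It was called in every alternative fit and with each of the 6 libraries left out, with adjusted p between 0.000359 and 0.0059 when a library was left out. The opposite-strand neighbour Cerkl had at most 13 counts in these 6 libraries.

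Itgav encodes the αv chain, which pairs with several β chains in receptors for vitronectin, osteopontin and latent TGF-β. Its levels were 20.15, 24.84 and 30.36 CPM in CGD CD101neg libraries and 16.2, 7.291 and 16.49 CPM in WT CD101neg libraries. Every CGD library lay above every WT library, and WT replicate 2 was the lowest. The rise was 0.91 ± 0.27 (log2, SE, adjusted p = 0.0327). It lost its call without CGD replicate 2 (adjusted p = 0.0816), CGD replicate 3 (0.122) or WT replicate 2 (0.104), and when only these groups were fitted (0.106). Without WT replicate 2 the log2 fold change was 0.62. Gm13684, the gene on the other strand that shares exon sequence with Itgav, also rose, at 14.7, 8.4 and 5.56 CPM in CGD CD101neg libraries against 1.52, 1.89 and 1.09 CPM in WT CD101neg libraries (log2 2.67 ± 0.387, adjusted p = 0.000234). Its highest CGD library was the lowest for Itgav. Reads from the 634 bases shared by these genes, of 10744 exon bases of Itgav, cannot be told apart without strand. The Itgav value is uncertain to that extent.

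Cd44 encodes the hyaluronan receptor, which also serves as a selectin ligand on neutrophils. It was at 3098, 3246 and 3454 CPM in CGD CD101neg libraries and at 1909, 2121 and 2159 CPM in WT CD101neg libraries. These CGD libraries stood above all other 15 libraries of the study. The rise was 0.66 ± 0.19 (log2, SE, adjusted p = 0.0251). The call was lost when any 1 library other than WT replicate 2 was left out (adjusted p between 0.0592 and 0.0874), without the low-count filter (0.0775) and when only these groups were fitted (0.1).

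Scaling matters for both rises. With library size in place of the TMM factors, the median gene stood at log2 -0.568 in this comparison, 413 genes rose and 3572 fell (1105 and 1034 with TMM), and the Itgav and Cd44 values were 0.40 and 0.19, neither called (adjusted p = 0.4 and 0.353). Relative to that median they were 0.97 and 0.754 above it, against 0.998 and 0.747 with TMM. Itga4 stood 1.33 below the median gene on either scaling.

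The β2 integrins of CD101neg cells gave no call with TMM factors. Itgb2 encodes the β2 chain, shared by LFA-1, Mac-1 and CD11c/CD18, and stood at 2564, 2257 and 1962 CPM in CGD libraries against 1250, 2024 and 1484 CPM in WT libraries. Its log2 fold change of 0.51 ± 0.21 missed the threshold (adjusted p = 0.113) and passed without WT replicate 2, at 0.73 (adjusted p = 0.0327). Itgal, the α chain of LFA-1, was at 314, 315.6 and 292.3 CPM in CGD libraries and 312.2, 537.7 and 425.7 CPM in WT libraries (log2 -0.47 ± 0.20, adjusted p = 0.137). The CGD values sat in a narrow range around the lowest WT value. Under library-size scaling Itgal and Selplg were called lower in CGD, at log2 -0.92 (adjusted p = 0.00184) and -0.79 (adjusted p = 0.044), which relative to the median gene was -0.357 and -0.226. Itgam itself, on which the cells were gated, was at 1108, 1100 and 1122 CPM in CGD and 740.7, 757.6 and 862 CPM in WT libraries (log2 0.50 ± 0.19, adjusted p = 0.0871).

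Itgax, Itgb1 and Selplg varied more between libraries of 1 group than between the genotypes. Itgax, the α chain of CD11c/CD18, was at 76.49, 89.41 and 96.7 CPM in CGD CD101neg and 95.47, 26.47 and 68 CPM in WT CD101neg libraries (log2 0.47 ± 0.52, adjusted p = 0.596). Itgb1, the β1 chain of the collagen, laminin and fibronectin receptors, was at 36.98, 70.81 and 90.5 CPM in CGD and 84.97, 46.64 and 83.89 CPM in WT libraries (log2 -0.12 ± 0.29, adjusted p = 0.827). Selplg, which encodes PSGL-1, was at 1330, 1284 and 1109 CPM in CGD and 809.5, 2609 and 1395 CPM in WT libraries (log2 -0.37 ± 0.34, adjusted p = 0.509). For each of these 3 genes the CGD and WT values overlapped.

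**Figure D2:**
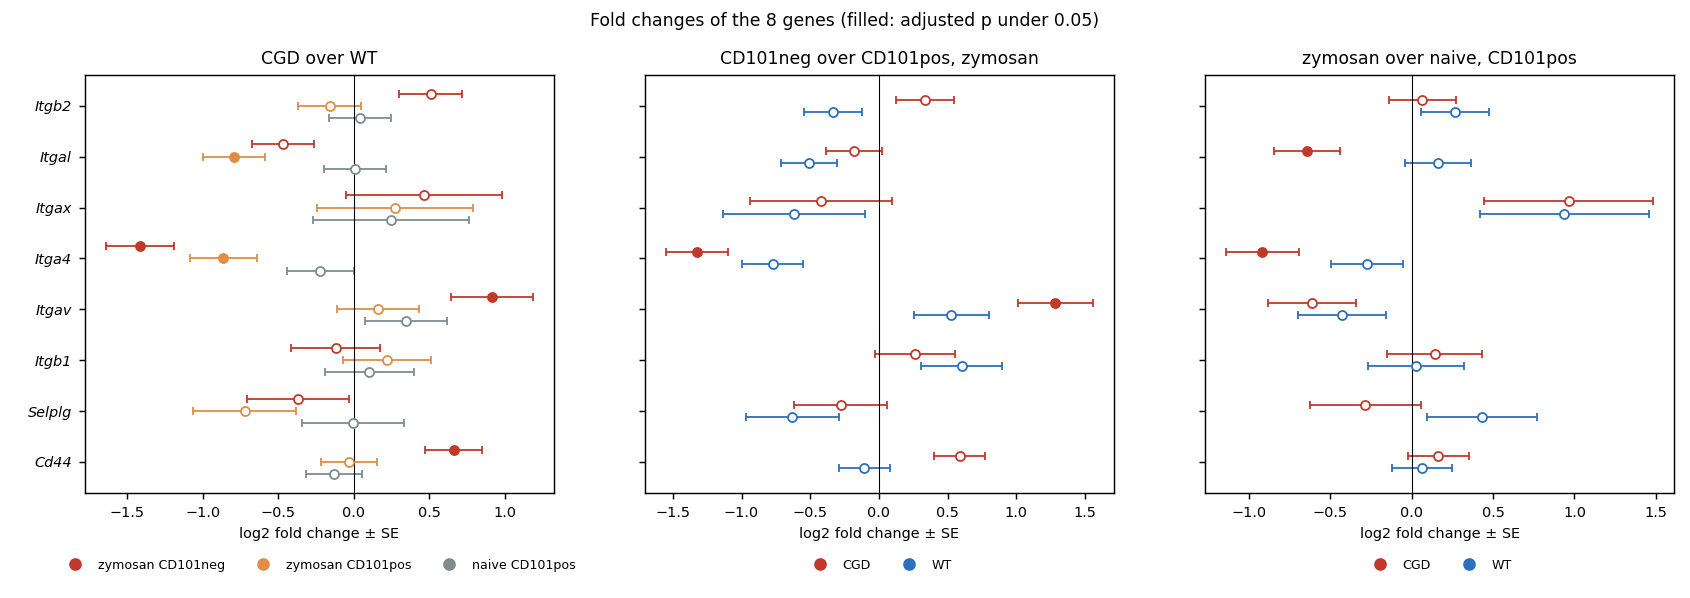
Log2 fold changes of the 8 genes with their SE in the genotype, subset and zymosan comparisons, from the fit without a replicate block. Filled points passed an adjusted p of 0.05: Itga4, Itgav and Cd44 for CGD over WT in CD101neg cells, Itgal and Itga4 in CD101pos cells after zymosan and for zymosan over naive in CGD, and Itga4 and Itgav for CD101neg over CD101pos cells of CGD.

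After zymosan, in CD101pos cells, the same genotype comparison gave no rise and 2 falls among the 8 genes, Itgal and Itga4. Among all genes 2.77% rose and 2.53% fell, 459 and 419 genes, or 308 and 490 with library-size scaling. Itgal was at 309, 368.5 and 368.4 CPM in CGD CD101pos libraries and at 455.1, 629.1 and 730.1 CPM in WT CD101pos libraries. No CGD library reached the lowest WT library, and Itgal fell by 0.79 ± 0.21 on the log2 scale (SE, adjusted p = 0.0279). Itga4 was at 32.24, 32.93 and 31.5 CPM in CGD libraries, which lay within a narrow band, and at 43.63, 54.53 and 77.83 CPM in WT libraries. It fell by 0.86 ± 0.22 (log2, SE, adjusted p = 0.0275). Both calls were lost when only these groups were fitted (adjusted p = 0.112 for Itgal and 0.0709 for Itga4). Both were also lost when any 1 library other than WT replicate 1 was left out, with adjusted p between 0.0637 and 0.168 for Itgal and between 0.0596 and 0.197 for Itga4.

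The other 6 genes of CD101pos cells overlapped between the genotypes. Itgb2 was at 2021, 1790 and 1567 CPM in CGD CD101pos and 1639, 2213 and 2149 CPM in WT CD101pos libraries (log2 -0.16 ± 0.21). Cd44 was at 2335, 2276 and 1914 CPM in CGD and 1716, 2344 and 2613 CPM in WT libraries (log2 -0.03 ± 0.19). Selplg was at 1643, 1183 and 1689 CPM in CGD and 1454, 3628 and 2364 CPM in WT libraries, and its log2 fold change of -0.72 ± 0.34 had an adjusted p of 0.274. Itgav ran from 9.694 to 11.17 CPM in CGD and from 6.227 to 11.7 CPM in WT libraries, so the rise seen in CD101neg cells had no counterpart that passed here. Itgb1 ran from 44.22 to 66.64 CPM in CGD and from 33.57 to 56.99 CPM in WT libraries, and Itgax from 103.4 to 145 CPM in CGD and from 22.16 to 177.1 CPM in WT libraries.

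The genotypes were also compared without zymosan. In naive CD101pos cells 0 of the 8 genes were called by edgeR, 0 had an unadjusted p under 0.05 and DESeq2 called 0, while 0.121% of all genes rose and 0.00603% fell. Itgal was at 547.4, 498.9 and 585.7 CPM in CGD naive and 558.5, 541 and 522.9 CPM in WT naive libraries (log2 0.01 ± 0.20). Itga4 was at 70.05, 58.91 and 53.59 CPM in CGD naive and 70.49, 66.18 and 76 CPM in WT naive libraries (log2 -0.22 ± 0.22). Itgav was at 14.03, 18.62 and 14.72 CPM in CGD naive and 11.95, 12.5 and 12.85 CPM in WT naive libraries (log2 0.35 ± 0.27, adjusted p = 0.893). Selplg, Cd44, Itgb2, Itgb1 and Itgax had log2 fold changes between -0.13 and 0.25 there.

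The subset comparison set CD101neg against CD101pos cells of zymosan-treated mice. In CGD 1 of the 8 genes was higher in CD101neg cells and 1 was lower, against 3.27% and 4.08% of all genes. These are 542 and 676 genes, or 82 and 1163 with library-size scaling, under which the median gene stood at log2 -0.34. Itga4 was at 10.99 to 16.39 CPM in CD101neg and 31.5 to 32.93 CPM in CD101pos libraries of CGD, without overlap (log2 -1.32 ± 0.23, SE, adjusted p = 0.00264). That call held in each alternative fit and with each library left out. Itgav was higher in CD101neg cells by 1.28 ± 0.27 (adjusted p = 0.0103), with 20.15 to 30.36 CPM in CD101neg and 9.694 to 11.17 CPM in CD101pos libraries. Its call was lost without CD101neg replicate 3 (adjusted p = 0.0554), without CD101pos replicate 3 (0.0501) and with library-size scaling (0.094), and Gm13684 rose in the same comparison (log2 1.77 ± 0.37, adjusted p = 0.00949). Cd44 was higher in each CD101neg library than in any CD101pos library of CGD, at log2 0.59 ± 0.19, but its adjusted p was 0.0612 by edgeR. DESeq2 called 2066 of the 16575 genes and 3 of the 8, with Cd44 among them at an adjusted p of 0.0107.

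In WT none of the 8 genes was called between the subsets in the fit without pairing, where 0.41% of all genes were higher and 0.0302% lower in CD101neg cells. DESeq2 also called 0, and 2 of the 8, Itgal and Itga4, had an unadjusted p under 0.05. The replicate numbers of the labels paired the WT subsets, since libraries with the same number deviated from their group means together. With this replicate block within genotype, 5.05% of genes rose and 5.98% fell, 1741 genes in all. In the paired fit 1 of the 8 genes rose and 3 fell in CD101neg cells of WT: Itgb1 at log2 0.58 (adjusted p = 0.0157), Itga4 at -0.76 (0.00186), Selplg at -0.70 (0.00332) and Itgal at -0.52 (0.0145). Without the block the same log2 fold changes were 0.60 ± 0.29, -0.77 ± 0.22, -0.63 ± 0.34 and -0.51 ± 0.20. Libraries of WT replicate 2 show the pairing: in CD101neg and CD101pos cells they held the lowest Itgax (26.47 and 22.16 CPM), the lowest Itgav (7.291 and 6.227 CPM), the lowest Itgb1 (46.64 and 33.57 CPM) and the highest Selplg (2609 and 3628 CPM) of their group. The summed neutrophil-defining markers were also highest in these libraries, at 79620 CPM in CD101neg and 85570 CPM in CD101pos cells, against 18340 to 33750 and 29980 to 52190 CPM in the other WT libraries of each subset. Whether this has a part in the member values was not tested.

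The interaction of genotype with subset asked whether the gap between CD101neg and CD101pos cells was itself different in CGD. None of the 8 genes passed by edgeR, against 0.181% of all genes with a higher and 0.67% with a lower gap in CGD, 30 and 111 genes, or 1 and 163 with library-size scaling. DESeq2 called 0 of the 8. Cd44 (log2 0.69 ± 0.26, adjusted p = 0.229) and Itgb2 (0.67 ± 0.29, adjusted p = 0.304) were the 2 of the 8 genes with an unadjusted p under 0.05. They ranked 1185 and 1889 of all 16575 genes by p. For Itga4 the interaction was -0.55 ± 0.31 (adjusted p = 0.432), and for Itgav it was 0.75 ± 0.38 (adjusted p = 0.38). The calls made in CGD and missed in WT are therefore not shown to differ between the genotypes in this fit. A fit with the replicate block within genotype called 2229 of 15791 genes in this interaction. Its numbers were shown to pair in WT, which is not settled in CGD. In that fit Itgb2, Itgav and Cd44 passed (adjusted p = 0.0168, 0.0405 and 0.0314), and Itga4 did not (0.0511).

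Zymosan was set against naive in CD101pos cells, a comparison that sex and age share. In CGD none of the 8 genes rose and 2 fell, Itgal and Itga4, against 7.13% of all genes that rose and 5.71% that fell. These are 1182 and 946 genes, or 727 and 2021 with library-size scaling (median log2 -0.243). Itgal was at 309, 368.5 and 368.4 CPM in zymosan and 547.4, 498.9 and 585.7 CPM in naive libraries of CGD, and it fell by 0.64 ± 0.20 (log2, SE, adjusted p = 0.0449). That call was lost with any 1 of the 6 libraries left out (adjusted p between 0.0651 and 0.122), without the low-count filter (0.0682) and when only these groups were fitted (0.0624). Itga4 was at 32.24, 32.93 and 31.5 CPM in zymosan and 70.05, 58.91 and 53.59 CPM in naive libraries of CGD and fell by 0.92 ± 0.22 (adjusted p = 0.00983). Its call was lost only without naive replicate 1 (log2 -0.80, adjusted p = 0.053). Itgav was at 10.12, 11.17 and 9.694 CPM in zymosan and 14.03, 18.62 and 14.72 CPM in naive libraries of CGD, which did not overlap, and it did not pass (log2 -0.61 ± 0.27, adjusted p = 0.153).

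In WT none of the 8 genes was called between zymosan and naive by edgeR or by DESeq2, and 0 had an unadjusted p under 0.05, while 2.92% of all genes rose and 0.875% fell. These are 484 and 145 genes, or 264 and 617 with library-size scaling (median log2 -0.327). Itgal was at 455.1, 629.1 and 730.1 CPM in zymosan and 558.5, 541 and 522.9 CPM in naive libraries of WT (log2 0.16 ± 0.20). Itga4 was at 43.63, 54.53 and 77.83 CPM in zymosan and 70.49, 66.18 and 76 CPM in naive libraries (log2 -0.27 ± 0.22). Itgam, the gated chain, rose in WT by 0.71 ± 0.19 (log2, SE, adjusted p = 0.0387), with 831.6, 764.3 and 1125 CPM after zymosan and 583.5, 526 and 556.6 CPM in naive libraries. That call was lost when any 1 library other than zymosan replicate 2 was left out (adjusted p up to 0.218), when only these groups were fitted and with library-size scaling (log2 0.40, adjusted p = 0.256). Itgax had large positive values in both genotypes that did not pass, at log2 0.96 ± 0.52 in CGD and 0.94 ± 0.52 in WT. Macrophage markers of these comparisons are given below. The interaction of genotype with zymosan called none of the 8 genes, by edgeR or by DESeq2, against 0.163% of all genes with a higher and 0.157% with a lower response in CGD, 27 and 26 genes, or 9 and 4 with library-size scaling. Itgal alone of the 8 had an unadjusted p under 0.05 (log2 -0.80 ± 0.29, adjusted p = 0.315), at rank 626 of all 16575 genes by p.

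Ratios of 2 chains within a library do not depend on the scaling between libraries. Itgal counts were 26.1 to 28.7% of Itgam counts in CGD CD101neg libraries and 42.2 to 71% in WT CD101neg libraries. In CD101pos cells after zymosan the ratio was 37.3 to 43.2% in CGD and 54.7 to 82.3% in WT, and in naive cells it was 85.4 to 94% in CGD and 93.9 to 103% in WT. In both subsets after zymosan every CGD library lay below every WT library, and each zymosan library lay below each naive library of its genotype. The ratio shows unequal change of the chains, not which of them changed.

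Itga4 over Itgb1 ran from 12.4 to 44.3% in CGD CD101neg and from 30.4 to 77.7% in WT CD101neg libraries, so these groups overlapped. It was 47.3 to 72.9% in CGD and 76.6 to 162% in WT CD101pos libraries after zymosan, and 96.7 to 156% in CGD and 147 to 164% in WT naive libraries. Itgav over Itgb1 was 33.5 to 54.5% in CGD CD101neg libraries, above the 15.6 to 19.7% of WT CD101neg, the 14.5 to 22.9% of CGD CD101pos and the 18.5 to 20.5% of WT CD101pos libraries. Naive libraries lay between, at 30.5 to 33.5% in CGD and 24.8 to 27.9% in WT, the CGD values touching the lower end of CGD CD101neg. Itgax over Itgam spread widely, from 6.91 to 8.62% in CGD CD101neg against 3.49 to 12.9% in WT CD101neg libraries.

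**Figure D3:**
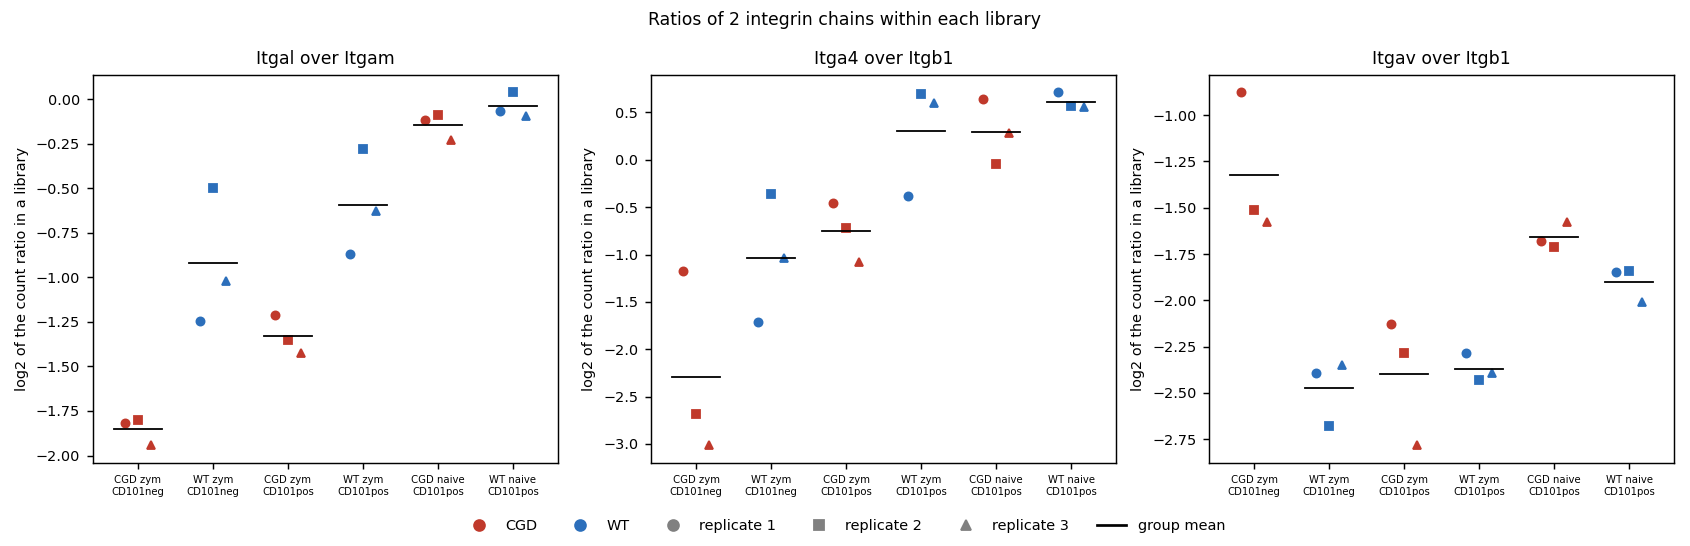
Log2 of the ratio of counts of 2 integrin chains in each library, with 1 point per library and the bar at the group mean. Itgal over Itgam is lowest in CGD CD101neg libraries, at 26.1 to 28.7%, and Itgav over Itgb1 is highest there, at 33.5 to 54.5%.

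Over the 6 groups Itga4 had the widest range of the 8 genes. Its means ran from 70.89 ± 4.92 CPM in WT naive, through 60.85 ± 8.4 in CGD naive, 58.66 ± 17.5 in WT CD101pos, 34.36 ± 7.74 in WT CD101neg and 32.22 ± 0.715 in CGD CD101pos, to 12.87 ± 3.05 CPM in CGD CD101neg cells (SD, n = 3), a ratio of 5.51 between the extremes. The top 3 groups overlapped one another in this order, as did WT CD101neg with CGD CD101pos, and gaps without overlap lay after WT CD101pos and before CGD CD101neg. Itgal spanned a ratio of 1.97, Selplg 2, Cd44 1.68, Itgb1 1.55 and Itgb2 1.43 between their highest and lowest group means, and neighbours in the order of Itgal, Itgb2, Itgb1, Itgax and Selplg overlapped throughout. Cd44 had a single gap, below CGD CD101neg cells, and Itgav had gaps below CGD CD101neg and below WT naive cells.

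Itga4 is a chain that B cells also carry. B cell markers fell beside it in the genotype comparisons after zymosan and with zymosan in CGD, but not in the same way between the subsets. With zymosan in WT the markers fell while Itga4 did not pass (log2 -0.27 ± 0.22, adjusted p = 0.586 by edgeR). The sum of the 8 B cell markers found was 27.1 to 44.7 CPM in CGD CD101neg and 121 to 147 CPM in WT CD101neg libraries. Of the 8, 7 fell, against 6.24% of all genes. In CD101pos cells after zymosan the sum was 47.8 to 67.7 CPM in CGD and 150 to 178 CPM in WT libraries. There 5 of 8 fell, against 2.53% of all genes. In naive libraries the sum was 304 to 440 CPM in CGD and 433 to 458 CPM in WT. With zymosan 6 of 8 fell in each genotype, against 5.71% of all genes in CGD and 0.875% in WT. Between the CGD subsets 1 of 8 was lower in CD101neg cells, against 4.08% of all genes. The median log2 fold change of the markers was -0.567, while Itga4 stood at -1.32. Between the WT subsets 1 of 8 was higher (median 0.654), against 0.41% of all genes, while Itga4 stood at -0.77. Ighm, the heavy chain gene of IgM, took most of the sum, at a mean of 27.2 CPM in CGD CD101neg and 83.8 CPM in WT CD101neg libraries. Of 13 T and NK cell markers, 0 rose and 2 fell in CGD CD101neg against WT CD101neg cells (median log2 -1.72). With zymosan 0 rose and 3 fell in CGD (-1.04), and none was called in WT (-1.05). None was called between genotypes in CD101pos cells after zymosan (0.0978). Between the subsets 1 fell in CGD (-0.205) and none was called in WT (0.729). The shares of all genes are those given above. The part of the B, T and NK cell markers in the Itga4 and Itgal values was not tested.

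The β7 chain Itgb7, the other partner of α4, followed a like order. It averaged 10.7 ± 3.41 CPM in CGD CD101neg and 19.1 ± 4.42 CPM in WT CD101neg cells, a log2 fold change of -0.84 ± 0.29 that did not pass (adjusted p = 0.0655). With zymosan it fell in both genotypes, at 15.9 ± 4.38 CPM against 50.7 ± 15.3 CPM in naive cells of CGD (log2 -1.67 ± 0.30, adjusted p = 0.000955) and 23.5 ± 6.1 CPM against 80.2 ± 16 CPM in WT (log2 -1.77 ± 0.30, adjusted p = 0.00173). Both Itgb7 calls held with any library left out.

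**Figure D4:**
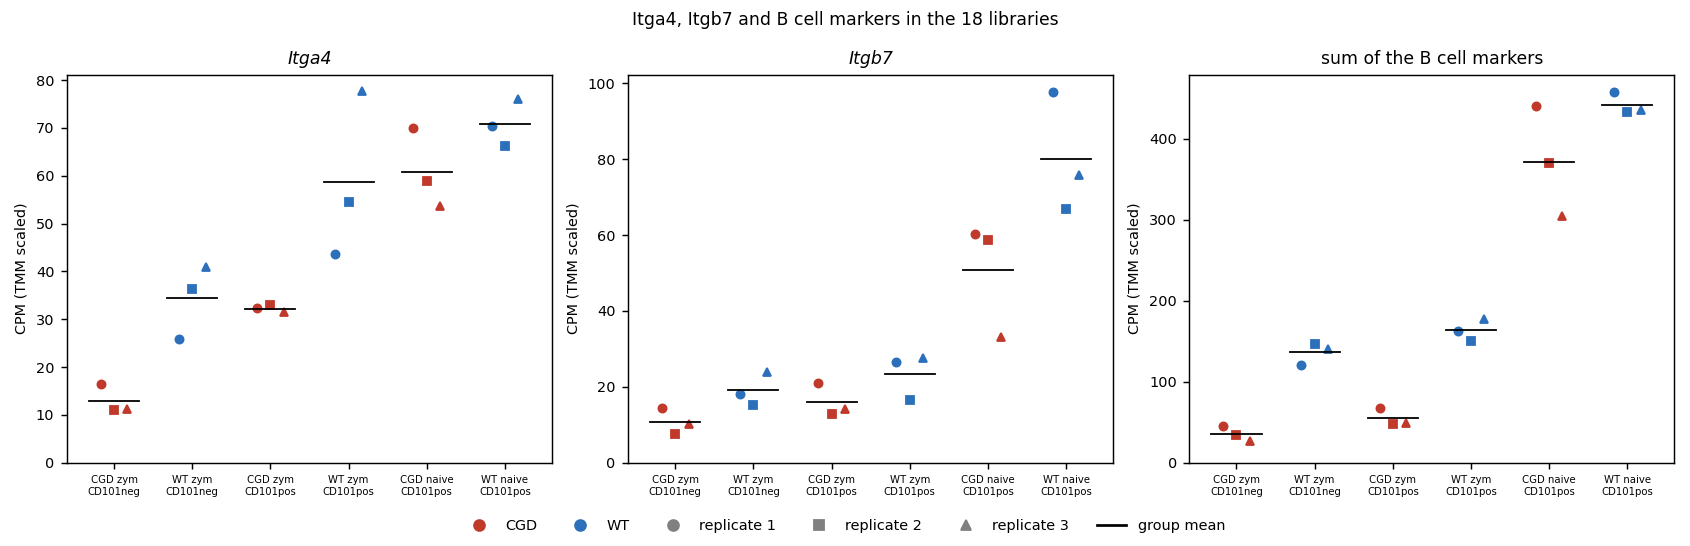
Itga4, Itgb7 and the summed B cell markers in CPM (linear axes from 0) in each of the 18 libraries, with the bar at the group mean. All 3 have their lowest group mean in CGD CD101neg and their highest in WT naive cells, where the B cell sum is 27.1 to 44.7 and 433 to 458 CPM.

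Markers of macrophages, dendritic cells and eosinophils stand beside Itgax and Itgav, which those cells carry. For CGD over WT, 6.67% of all genes rose and 6.24% fell in CD101neg cells. In CD101pos cells after zymosan 2.77% rose and 2.53% fell, and in the interaction of genotype with subset 0.181% were higher and 0.67% lower. The alveolar macrophage sum was 2248 to 3321 CPM in CGD CD101neg and 1308 to 2013 CPM in WT CD101neg libraries, and 2 of its 15 genes rose while 8 fell. Chil3 averaged 1930 CPM of this sum in CGD CD101neg and 328 CPM in WT CD101neg cells, and Abcg1 617 CPM in CGD and 1070 CPM in WT. In CD101pos cells after zymosan it was 2881 to 3439 CPM in CGD and 1192 to 1623 CPM in WT libraries, with 7 of 15 genes higher. Marco averaged 4.93 CPM in CGD CD101neg and 17.8 CPM in WT CD101neg cells, against 42.4 CPM in CGD CD101pos and 14.2 CPM in WT CD101pos cells. The dendritic cell sum was 1508 to 1695 CPM in CGD CD101neg and 649 to 1429 CPM in WT CD101neg libraries, nearly all from Cd24a, and the defining gene Xcr1 was under 1 CPM in every group mean. Of the dendritic cell genes 0 of 10 rose and 3 fell in CGD CD101neg cells. The eosinophil sum was 27.99 to 46.13 CPM in CGD CD101neg and 44.13 to 71.8 CPM in WT CD101neg libraries, where 1 of 6 tested genes rose and 2 fell, with Ear6 at 6.99 CPM in CGD and 2.13 CPM in WT and Alox15 at 0.0814 CPM in CGD and 11.3 CPM in WT. The defining genes Epx, Prg2 and Il5ra had group means under 1 CPM. The sum of monocyte and interstitial macrophage markers was 3826 to 4891 CPM in CGD CD101neg and 2982 to 4104 CPM in WT CD101neg libraries, and 0 of 14 rose while 9 fell. In CD101pos cells after zymosan it was 3301 to 3908 CPM in CGD and 3150 to 4718 CPM in WT libraries, with 4 genes higher and 1 lower, and in the interaction of genotype with subset 0 were higher and 5 lower. Of the 15 alveolar macrophage genes, 10 rose and 0 fell with zymosan in CGD CD101pos cells (median log2 2.55). In WT 8 rose and 0 fell (median 1.47). Monocyte and interstitial macrophage genes gave 5 rises and 3 falls in CGD and 4 and 0 in WT. Dendritic cell genes gave 1 and 0 in CGD and 0 and 1 in WT, and eosinophil genes 1 and 0 and 3 and 0. Among all genes 7.13% rose and 5.71% fell in CGD, and 2.92% and 0.875% in WT. The part of these markers in the Itgax and Itgav values was not tested.

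Other integrin chains, 18 of 20 tested, gave 0 rises and 3 falls for CGD over WT in CD101neg cells (median log2 -0.36), where 6.67% of all genes rose and 6.24% fell. All 3 were low. Fibroblast markers moved in the same direction: their sum was 84.22 to 115.1 CPM in CGD CD101neg and 145 to 196.6 CPM in WT CD101neg libraries, and 0 of 9 rose and 3 fell. Their part in these values was not tested. Itgb5, an αv partner, was at 2.073 ± 0.224 CPM in CGD and 5.498 ± 0.3 CPM in WT CD101neg cells (log2 -1.41 ± 0.23, adjusted p = 0.000703). Itga8 was at 0.6495 ± 0.131 and 3.162 ± 0.913 CPM in CGD and WT (log2 -2.28 ± 0.41, adjusted p = 0.00145), and Itga1, a collagen receptor chain, at 3.128 ± 1.1 and 7.421 ± 2.49 CPM (log2 -1.25 ± 0.32, adjusted p = 0.0151). Itga1 lost its call without CGD replicate 2 or WT replicate 1. In CD101pos cells after zymosan, where 2.77% of all genes rose and 2.53% fell, edgeR called 0 of the 18. In naive cells, where 0.121% rose and 0.00603% fell, it also called 0. With zymosan, Itga5, the fibronectin receptor α chain, rose in CGD to 89.23 ± 29.4 CPM, against 27.93 ± 7.76 CPM in naive cells (adjusted p = 0.00332), and in WT to 90.25 ± 26.1 CPM, against 31.11 ± 2.09 CPM (adjusted p = 0.0157). Itga8 fell by 1.69 ± 0.38 in CGD and by 1.61 ± 0.38 in WT (log2, SE). In WT the Itga5 call was lost without zymosan replicate 3 or any naive library, and the Itga8 call without any library but zymosan replicate 1 (adjusted p up to 0.074 and 0.0877). The WT Itga5 call was also lost with library-size scaling (log2 1.24, adjusted p = 0.0977).

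Of 31 tested genes for integrin activation, 5 rose and 2 fell in CGD CD101neg cells (median log2 0.16), against 6.67% and 6.24% of all genes. Lims1, the adaptor PINCH1, rose to 207.8 ± 21.9 CPM in CGD, against 74.04 ± 12.8 CPM in WT (log2 1.49 ± 0.20, adjusted p = 0.000115). Cyth1, which binds the β2 tail, was at 90.47 ± 2.81 CPM in CGD and 37.33 ± 11.6 CPM in WT (adjusted p = 0.00196), and the exchange factor gene Vav3 at 31.45 ± 1.89 and 15.72 ± 1.37 CPM in CGD and WT (adjusted p = 0.000761). Rasa3, an inhibitor of Rap1, fell to 62.15 ± 9.77 CPM in CGD CD101neg cells, against 168 ± 42.5 CPM in WT (log2 -1.43 ± 0.23, adjusted p = 0.000508). It fell as well in CGD CD101pos cells, at 89.15 ± 5.47 CPM against 236.1 ± 58.9 CPM in WT (log2 -1.41 ± 0.23, adjusted p = 0.00169). There 0 of 31 rose and 3 fell, where 2.77% of all genes rose and 2.53% fell. The other falls were Sipa1, a Rap1 GTPase-activating gene, and the focal adhesion adaptor Pxn. Sipa1 and Pxn lost their calls without CGD replicate 1 or 2 or WT replicate 3, Sipa1 also without WT replicate 1 and Pxn without WT replicate 2. Vav3 alone of the 31 passed the interaction of genotype with subset (log2 1.14 ± 0.23, adjusted p = 0.0239), where 0.181% of all genes were higher and 0.67% lower. That call was lost without replicate 2 or 3 of either CGD subset, WT CD101neg replicate 1 or WT CD101pos replicate 3 (adjusted p up to 0.0919). It was also lost with library-size scaling (log2 0.70, adjusted p = 0.239). Library-size scaling also ended the Vav3 call in CD101neg cells (log2 0.51, adjusted p = 0.0885). In naive cells 0 of the 31 passed, where 0.121% of all genes rose and 0.00603% fell.

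Selectins and the enzymes that build their ligands, 16 of 17 tested, gave 3 rises and no fall in CGD CD101neg cells (median log2 -0.02), against 6.67% and 6.24% of all genes. The sialyltransferase gene St3gal6 was at 413.9 ± 90 CPM in CGD and 201.3 ± 15.5 CPM in WT (adjusted p = 0.0121). Fut7, the fucosyltransferase that completes selectin ligands, was at 9.525 ± 1.76 and 4.362 ± 1.03 CPM in CGD and WT (adjusted p = 0.0125), and Tpst2, which sulfates tyrosines of PSGL-1, at 88.2 ± 21.5 and 53.17 ± 8.84 CPM (adjusted p = 0.0179). St3gal6 lost its call without CGD replicate 1 or WT replicate 3, Fut7 without replicate 2 of either genotype, and Tpst2 without any library but CGD replicate 1 or WT replicate 3. With library-size scaling Fut7 and Tpst2 were not called, at log2 0.62 and 0.26. Fut7 was also higher in CD101neg than in CD101pos cells of CGD (log2 1.33 ± 0.28, adjusted p = 0.00949), a call lost without CD101neg replicate 2 or CD101pos replicate 3. Between genotypes edgeR called 0 of the 16 in CD101pos cells after zymosan, where 2.77% of all genes rose and 2.53% fell. It also called 0 in naive cells, where 0.121% rose and 0.00603% fell. Gcnt1, which starts the branched glycans of PSGL-1, rose with zymosan in CGD (log2 1.12 ± 0.25, adjusted p = 0.00501) and in WT (log2 1.79 ± 0.25, adjusted p = 0.000382).

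Genes that link or shed adhesion molecules, 12 tested, gave 1 rise and 1 fall in CGD CD101neg cells (median log2 0.18), against the same 6.67% and 6.24%. Adam8, a sheddase able to cut PSGL-1, was at 1888 ± 664 CPM in CGD and 724.7 ± 318 CPM in WT (log2 1.38 ± 0.37, adjusted p = 0.0199), and it lost its call without CGD replicate 1, WT replicate 1 or WT replicate 3. Rdx, radixin, which ties CD44 to actin, was at 15.01 ± 4.88 CPM in CGD and 24.68 ± 0.564 CPM in WT (adjusted p = 0.0243) and kept its call only when CGD replicate 3 was the library left out. In CD101neg against CD101pos cells of CGD, the sheddase gene Adam17 (log2 1.21 ± 0.31, adjusted p = 0.0247) and its regulator Rhbdf2 (log2 0.72 ± 0.21, adjusted p = 0.0468) rose, and the inhibitor gene Timp3 fell (log2 -0.93 ± 0.26, adjusted p = 0.04). All 3 lost their calls without CD101neg replicate 2, CD101neg replicate 3 or CD101pos replicate 2, Adam17 and Rhbdf2 without CD101pos replicate 1, Timp3 without CD101pos replicate 3, and Rhbdf2 without CD101neg replicate 1. Library-size scaling ended the calls of Adam17 (log2 0.87, adjusted p = 0.168) and Rhbdf2 (log2 0.37, adjusted p = 0.359), and Rhbdf2 was also lost without the low-count filter and with only the groups compared.

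Ligands of the integrins and of CD44, 20 of 25 tested, gave 4 rises and 2 falls in CGD CD101neg cells (median log2 0.13), against the same 6.67% and 6.24%. Cd47, a partner of αv integrins, was at 528.1 ± 37.1 CPM in CGD and 201.2 ± 25.6 CPM in WT (log2 1.39 ± 0.20, adjusted p = 0.000157). Thbs1, thrombospondin-1, a ligand of CD47 and integrins, was at 6146 ± 470 CPM in CGD and 1484 ± 617 CPM in WT (log2 2.05 ± 0.37, adjusted p = 0.00144), and the osteopontin gene Spp1, a ligand of αv integrins and CD44, rose by 3.86 ± 0.61 (log2, adjusted p = 0.000593). These 3 calls held with any library left out. Icam2, an LFA-1 ligand, was at 16.42 ± 4.07 CPM in CGD and 36.93 ± 9.4 CPM in WT (adjusted p = 0.0256), and lost its call without replicate 1 or 2 of either genotype. In CD101pos cells after zymosan 6 of the 20 rose and 0 fell, where 2.77% of all genes rose and 2.53% fell. Among the 6, Thbs1 was at 2795 ± 552 CPM in CGD and 1080 ± 598 CPM in WT (adjusted p = 0.0314). That call was lost without CGD replicate 2 or 3 or WT replicate 1 or 2. It was also lost with library-size scaling (adjusted p = 0.0649), without the low-count filter and with only the groups compared. Spp1, also among the 6, rose by 2.46 ± 0.57 (log2, adjusted p = 0.0172). The CD101pos call of Spp1 was lost without CGD replicate 2 or 3 or WT replicate 2 or 3 (adjusted p up to 0.0903). In naive cells 1 of the 20 rose and 0 fell, where 0.121% of all genes rose and 0.00603% fell. This gene, Spp1, averaged 413.5 ± 407 CPM in CGD and 46.22 ± 9.68 CPM in WT (log2 3.16 ± 0.59, adjusted p = 0.0454). Its call was kept only when CGD replicate 1 was the library left out. It was lost with library-size scaling, without the filter, with only the groups compared and with the replicate block. Fgg had 7 to 80 counts in CGD CD101pos libraries and 0 in all 3 WT CD101pos libraries, so no fold is given. Icam1, the main β2 ligand, rose with zymosan in CGD, to 691.1 ± 164 CPM against 85.37 ± 56.8 CPM in naive cells (adjusted p = 0.00189), and in WT, to 401.9 ± 238 CPM against 64.73 ± 12.4 CPM (adjusted p = 0.012). In WT the Icam1 call was lost without zymosan replicate 1, naive replicate 2 or naive replicate 3.

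The same lists were counted in the other comparisons. In CD101neg against CD101pos cells of CGD, the integrin chains gave 0 rises and 3 falls, the activation genes 5 and 1, the selectin genes 2 and 0, the linking and shedding genes 2 and 1, and the ligands 1 and 2, where 3.27% of all genes rose and 4.08% fell. Lims1 rose there to 207.8 ± 21.9 CPM in CD101neg cells, against 84.45 ± 3.85 CPM in CD101pos cells (log2 1.30 ± 0.20, adjusted p = 0.00127), and kept its call with any library left out. In WT no gene of the 5 lists was called between the subsets by edgeR without pairing, where 1, 4, 4, 3 and 4 had an unadjusted p under 0.05, and DESeq2 called 1 rise and 1 fall, both among the ligands. With the replicate block within genotype, the WT activation genes gave 0 rises and 10 falls and the selectin genes 2 rises and 4 falls in CD101neg cells, where 5.05% of genes rose and 5.98% fell. With zymosan in CGD CD101pos cells the integrin chains gave 2 rises and 3 falls, the activation genes 0 and 3, the selectin genes 3 and 3, the linking and shedding genes 4 and 0, and the ligands 6 and 0, where 7.13% of all genes rose and 5.71% fell. In WT the same lists gave 2 and 2, 1 and 0, 1 and 0, 1 and 0, and 2 and 0, where 2.92% of all genes rose and 0.875% fell. The zymosan comparison of CGD and the subset comparison of CGD share the CGD CD101pos libraries with each other and with the CD101pos genotype comparison after zymosan. Among the list genes named above, fitting only the groups compared also ended the CD101neg genotype calls of Itga1, Tpst2, Adam8 and Rdx, the CD101pos calls of Sipa1 and Pxn and the interaction of Vav3. Dropping the low-count filter ended those of Adam8, of Spp1 in CD101pos cells, of Icam1 for zymosan in WT and of the Vav3 interaction, and library-size scaling that of Sipa1.

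**Figure D5:**
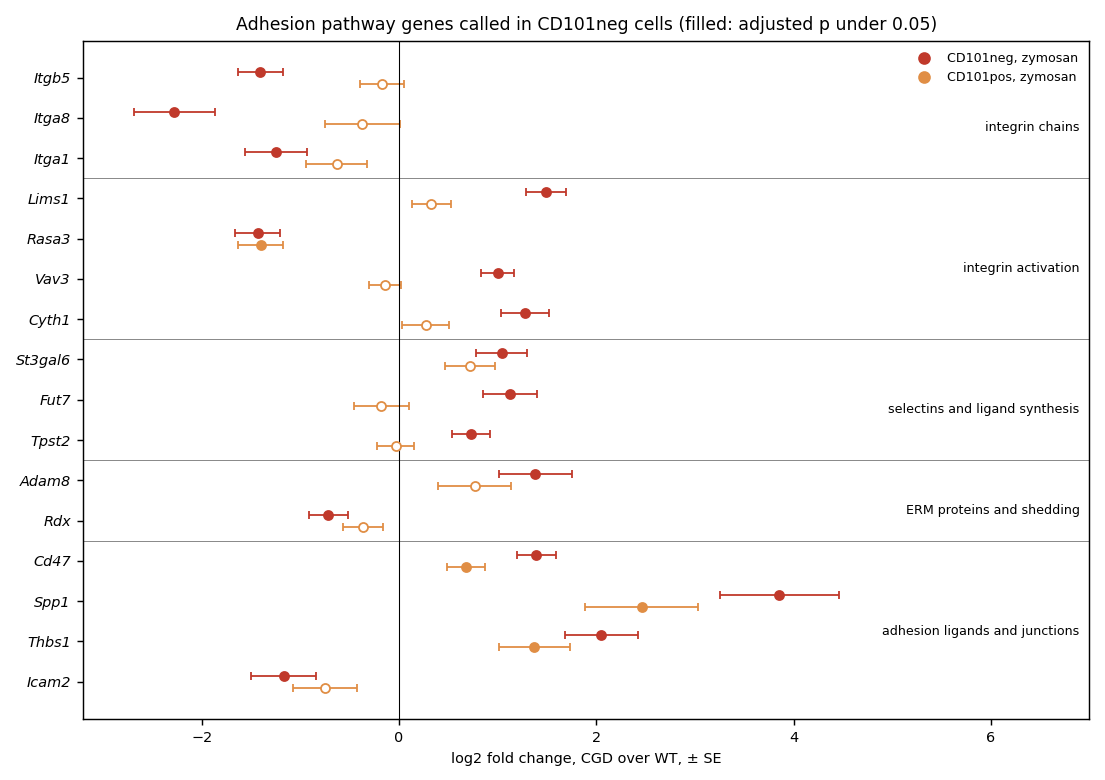
Log2 fold changes of CGD over WT with their SE in CD101neg and CD101pos cells after zymosan, for the adhesion pathway genes of lowest p called in CD101neg cells (up to 4 a list). Filled points passed an adjusted p of 0.05: Rasa3, Cd47, Spp1 and Thbs1 did so in both subsets, with Rasa3 at -1.43 and -1.41.

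The genes whose level over the 18 libraries was most like each of the 8 were found by Pearson correlation of log2 CPM. Itga4 was nearest to Gad1-ps (0.966), Atg4c (0.961) and Iqce (0.96), and Itgal to Grk2 (0.972), Fam129a (0.971) and Parp8 (0.963). Selplg was nearest to Zyx (0.968), Irak4 (0.94) and Adipor2 (0.939), and Itgb2 to Arpc5 (0.951), Zfand2b (0.942) and Capza1 (0.94). Cd44 was nearest to Dync1li1 (0.915), Rab11fip1 (0.903) and Rock1 (0.895), Itgav to Rab19 (0.916), Plgrkt (0.877) and Ddx17 (0.869), Itgb1 to Pomk (0.914) and Taf5l (0.91), and Itgax to Elk3 (0.915), Bccip (0.878) and Hic1 (0.876). Among the 8 genes themselves, Itgal and Itga4 correlated at 0.862. The libraries share their groups, depth and scaling, so these values describe likeness in this table only.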

How the data were processed

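RNA of sorted mouse lung neutrophils was sequenced in 18 libraries, 3 in each of 6 groups. The authors deposited whole-number counts of reads per gene, for which the submitters' processing notes name featureCounts 1.4.6-p5, Subread and STAR 2.5.1a. Build, annotation and strand setting were not given in the sources used here. The table held 40757 lines, and 276 repeats with identical values were dropped. Genes with enough reads by filterByExpr (16575 genes, at least 99.967% of each library's counts) were fitted with edgeR 4.0.16 (TMM factors, robust quasi-likelihood, 1 fit of all 18 libraries, residual df 12), and p-values were adjusted by Benjamini-Hochberg over all tested genes and called under 0.05. SE is the log2 fold change over the square root of F. DESeq2 1.42.0 was an alternative, with RLE factors, library size alone, no filter, only the groups compared, replicate blocks and each library left out. The code was checked on simulated data. Depth was 33.7 to 67.9 M counts.

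The 8 genes and all gene lists were chosen with earlier results of these data known. The named list genes were those called with the lowest p, up to 4 a list and comparison, and the nearest patterns were the 3 highest Pearson correlations. Some items are not reported here. Replicate numbers come from the sample titles. Same-numbered WT CD101neg and CD101pos libraries deviated together (r 0.487, 0.425 and 0.312). The main fit had no replicate block, so its subset and interaction tests leave this pairing out. Pairing entered only through the alternative fits with replicate blocks. In CGD the same-numbered r values were 0.236, 0.0245 and 0.26, against -0.256 to 0.0121 for unlike numbers. Whether the CGD libraries pair is therefore not settled.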

Additional observations from a re-analysis of the deposited data

How the results depend on the processing

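No called value of the 8 genes reversed. Of 456 values of these genes under alternatives other than a library left out, 414 kept their direction and side of the threshold, as did 458 of 528 with a library left out, and 21 and 42 uncalled values changed sign. The CD101neg genotype and CGD subset calls of Itga4 held throughout. Genes called for CGD over WT in CD101neg cells numbered 2139, against 3985 with library size only and 1062 with only the groups compared, which left 1 of the 8 genes called. In CD101pos cells 878 became 1407 with DESeq2 and 572 with only the groups compared (0 of the 8). In naive cells 21 became 110 with DESeq2, 9 with library size only and 6 with only the groups compared. Between the CGD subsets 1218 became 2066 with DESeq2, and 1 of the 8 genes was called with library size only. Between the WT subsets 73 became 305 with DESeq2, 140 without the low-count filter and 0 with only the groups compared. For zymosan in WT 629 became 1213 with DESeq2. In CGD 1 of the 8 genes was called for zymosan without the filter or with only the groups compared. The interaction with subset called 141, against 589 with DESeq2, 327 without the filter and 62 with only the groups compared, and that with zymosan 53, against 261, 119 and, with library size only, 13. The replicate block within genotype, on zymosan libraries only, called 3924 genes between CGD subsets, 1741 between WT subsets (4 of the 8) and 2229 in the interaction (3 of the 8: Itgb2 at 0.67, Itgav at 0.76 and Cd44 at 0.66, adjusted p = 0.0168, 0.0405 and 0.0314). In CGD, where the numbers were not shown to pair, it also called Cd44 between the subsets (0.57, adjusted p = 0.0061). A replicate block by number over all groups changed no call of the 8 genes. With a library left out, the counts ran from 1164 to 1938 (1 to 3 of the 8) and 320 to 1125 (0 to 2) for CGD over WT in CD101neg and CD101pos cells, 2 to 64 in naive cells, 321 to 1185 (1 to 2) and 3 to 400 between CGD and WT subsets, 1170 to 1891 (0 to 1) and 263 to 560 for zymosan in CGD and WT, and 43 to 497 and 5 to 54 for the interactions. Beyond what these alternatives change by construction, the cause was not tested.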
